A study of Mus musculus with 6 samples.

Results

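Collagens are the main structural proteins of the dermis. The 44 collagen genes measured on the arrays were described in UVB-irradiated skin of Cbl-b-/- and WT mice. They were taken as every gene whose symbol has the collagen form (Col, a number, a and a number) among the transcript clusters that carry exactly 1 gene symbol. A transcript cluster is the set of probes that the array summarises as 1 value, and 21789 of the 35556 transcript clusters carry 1 symbol. The 44 genes lie on 46 transcript clusters, because Col6a5 and Col6a6 have 2 each, and the transcript cluster with the higher mean was kept. Of the 44 genes, 11 encode chains of fibrillar collagens, 10 encode collagens of the basement membrane zone, and 23 encode other collagens.

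Dorsal skin of 3 Cbl-b-/- and 3 WT mice was taken 24 h after a single UVB exposure of 80 mJ/cm2, and RNA of each mouse was hybridized to a Mouse Gene 1.0 ST array. Cbl-b is an E3 ubiquitin ligase, and the comparison asks how its loss shapes gene expression in irradiated skin. The Cbl-b-/- mice carry the deletion on both alleles, the WT mice were of the BL6 strain, and all of the mice were shaved before the exposure. The mice were matched for sex and age, and the age is not given in the sources used here. Both genotypes were irradiated, and unirradiated skin was not analysed here, so a difference present without UVB and a genotype-dependent response to UVB cannot be told apart. In whole skin, fewer cells of a type and less RNA per cell cannot be told apart. All levels below are log2 values after robust multichip average (RMA) normalization, and all fold changes are Cbl-b-/- minus WT on the log2 scale.

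A collagen molecule is a triple helix of 3 chains, which may be products of 1 gene or of several. The chains are hydroxylated and folded in the endoplasmic reticulum, trimmed outside the cell and cross-linked by lysyl oxidases. Fibrillar collagens (types I, II, III, V, XI, XXIV and XXVII) form fibrils. The fibrils that give the dermis its strength hold types I, III and V, and dermal fibroblasts make most of these. Type IV collagen forms the sheet of the basement membrane, type XVII anchors the basal keratinocyte to it, and type VII anchors it to the dermis. The other collagens decorate fibrils (types IX, XII, XIV, XVI, XIX, XX and XXII), form beaded filaments (type VI) or short chain networks (types VIII and X), or span the cell membrane (types XIII, XXIII and XXV), and types XXVI and XXVIII belong to none of these groups.

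The promoter sequences of 3 collagen genes are shown because they stand for 3 patterns in the data below, namely a fibrillar chain that varied with its partner between mice, a collagen of basal keratinocytes, and a collagen that stood out in a single mouse. Each is the 250 bases before the transcription start from RefSeq (GRCm38.p6), written 5' to 3' on the strand of the gene. Capitals mark the CCAAT box, the TATA motif (TATAAA) and the GC box (GGGCGG) on either strand. A CCAAT box on the opposite strand reads ATTGG, and a GC box there reads CCGCCC. Col1a2 lies on the plus strand (chr6:4505368-4505617), Col17a1 on the minus strand (chr19:47692043-47692292) and Col8a1 on the minus strand (chr16:57754738-57754987).
Col1a2: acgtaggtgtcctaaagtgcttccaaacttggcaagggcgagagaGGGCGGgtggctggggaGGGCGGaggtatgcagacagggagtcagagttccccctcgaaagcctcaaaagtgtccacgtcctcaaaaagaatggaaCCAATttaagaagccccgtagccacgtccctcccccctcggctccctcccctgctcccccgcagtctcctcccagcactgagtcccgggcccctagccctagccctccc
Col17a1: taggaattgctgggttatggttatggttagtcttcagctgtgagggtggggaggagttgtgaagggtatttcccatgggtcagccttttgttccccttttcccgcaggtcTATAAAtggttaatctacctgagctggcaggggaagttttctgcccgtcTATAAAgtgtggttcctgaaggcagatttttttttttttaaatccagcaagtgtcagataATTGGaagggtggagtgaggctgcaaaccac
Col8a1: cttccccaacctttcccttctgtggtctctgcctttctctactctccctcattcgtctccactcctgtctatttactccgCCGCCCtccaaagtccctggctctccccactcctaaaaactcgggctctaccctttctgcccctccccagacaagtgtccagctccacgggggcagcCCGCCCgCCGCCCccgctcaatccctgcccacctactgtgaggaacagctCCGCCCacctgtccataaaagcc

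The Col1a2 promoter holds 1 CCAAT match, which begins 109 bases before the start, and 2 GGGCGG matches. The Col17a1 promoter holds TATAAA at 140 and 91 bases before the start and a CCAAT match on the opposite strand. The Col8a1 promoter holds 4 GGGCGG matches, all on the opposite strand. RefSeq windows of 300 bases, from 250 before to 50 after the start, were at hand for 35 of the 44 collagen genes, as 38 windows. GGGCGG on either strand was in 60.5% of the 38 collagen windows and in 35.7% of all 32851 windows. CCAAT was in 34.2% against 37.4%, TATAAA in 13.2% against 13.6%, and TGANTCA, the AP-1 motif, in 2.63% against 7.81%. These shares describe letters in a window and not bound sites. Col4a1 and Col4a2, whose products join in 1 triple helix, have their starts at the 2 ends of 1 stretch of 22 bases, on opposite strands of chromosome 8, and their windows share 78 bases. The 22 bases from one start to the other (chr8:11312805-11312826, plus strand, with a GGGCGG match in capitals) are shown because they lie just downstream of both starts, in the first transcribed bases of both genes, and so belong to both promoter windows.
Col4a1 and Col4a2: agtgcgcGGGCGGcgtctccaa

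Cblb itself, the deleted gene, was measured at 8.61, 8.69 and 8.61 in the Cbl-b-/- arrays and at 9.90, 9.66 and 9.72 in the WT arrays. The log2 fold change, Cbl-b-/- minus WT, was -1.12 (standard error, SE, 0.09; adjusted p = 0.0782 from limma), and the genotypes did not overlap. The Cblb signal of the Cbl-b-/- arrays still lay above 5.34, the level taken here as background. Arrays correlated with each other at 0.980 to 0.993 across transcript clusters, but 2 arrays stood apart in cell type markers. The mean level of 9 adipocyte markers was 7.86 in Cbl-b-/- replicate 2 and 8.36 to 9.48 in the other arrays, and that of 12 skeletal muscle markers was 9.34 against 9.78 to 10.58. The mean of 29 hair follicle markers was 8.84 in WT replicate 3 and 5.52 to 6.87 in the other arrays. Above background in at least 1 genotype were 12 of 12 dermal fibroblast markers and 8 of 8 basal keratinocyte markers. So were 16053 of the 21789 transcript clusters with 1 symbol. The mean of the fibroblast markers lay between 10.10 and 10.25 in the Cbl-b-/- arrays and between 10.07 and 10.22 in the WT arrays, and the genotypes overlapped. Over the 9 marker lists the median log2 fold change ran from -0.33 (hair follicle) to 0.26 (endothelium). At an unadjusted p under 0.05, 1 of 12 muscle and 1 of 8 endothelial markers were higher (background 3.68%), with 0 lower in any list (background 2.87%). The muscle marker, Myh2, had a log2 fold change of 0.85, which is 1.80-fold (unadjusted p = 0.0211, adjusted p = 0.743 from limma). Most of its list went the other way, with 9 of the 12 muscle markers below 0 and a median log2 fold change of -0.25.

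**Figure D1:**
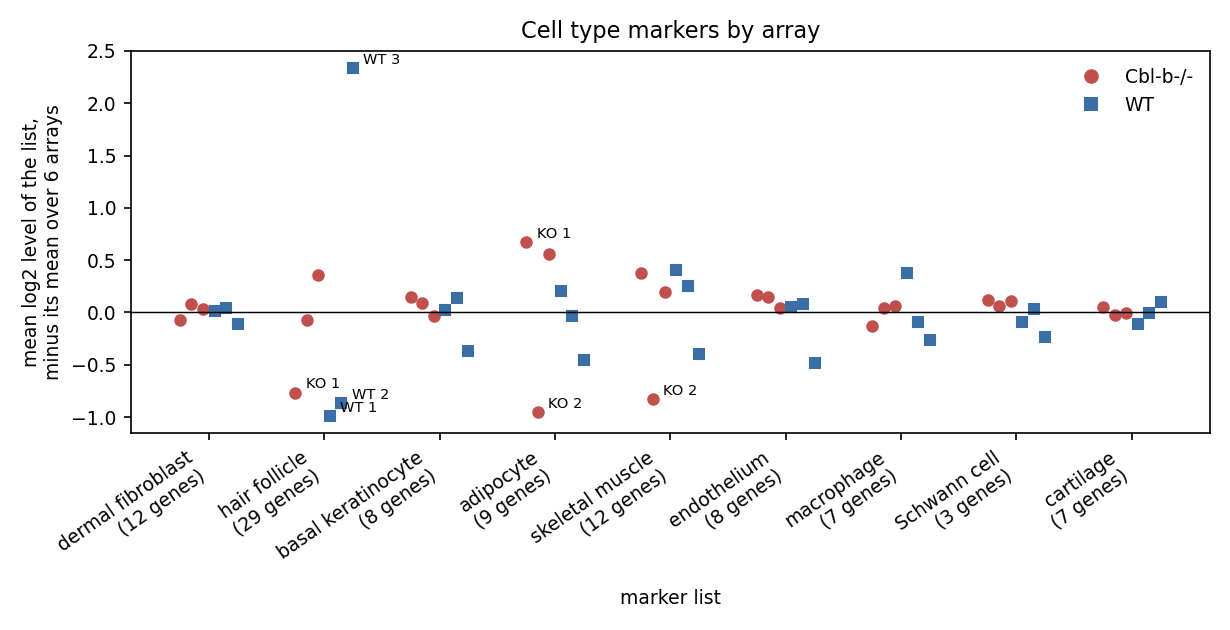
Mean log2 level of each cell type marker list in each array, minus the mean of that list over the 6 arrays (red circles, Cbl-b-/-; blue squares, WT). WT replicate 3 stands high in hair follicle markers and Cbl-b-/- replicate 2 low in adipocyte and skeletal muscle markers, while the mean of the 12 dermal fibroblast markers lies between 10.07 and 10.25 in all 6 arrays.

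No collagen gene differed between the genotypes by the thresholds of the study, a p under 0.05 with at least a 1.5-fold difference. In limma 0 of 44 met them in either direction, beside 1.22% of all transcript clusters (0.276% higher and 0.945% lower in Cbl-b-/-). Of the 21789 transcript clusters with 1 symbol, 47 met them as higher and 61 as lower, a smaller share. At an unadjusted p under 0.05 alone, limma gave 2 collagens higher, Col10a1 and Col26a1, beside 3.68% of all transcript clusters, and 0 lower, beside 2.87%. No collagen had an adjusted p under 0.05, beside 0.00281% of all transcript clusters. The test named in the methods, a one-way analysis of variance for each transcript cluster, gave 5 collagens higher (background 4.62%) and 0 lower (background 2.36%) at an unadjusted p under 0.05 and 0 after adjustment. A p over the threshold does not show that levels were equal, so the intervals were read as well. The 95% interval of the log2 fold change lay within 1.5-fold on either side for 37 of the 44 collagens (84.1%), beside 77.9% of all transcript clusters and 84.1% of those with 1 symbol. The 7 whose interval reached past 1.5-fold were Col1a1, Col1a2, Col17a1, Col6a3, Col8a1, Col12a1 and Col14a1. For those 7, a 1.5-fold difference between the genotypes was not excluded. The 16 core skin collagens were Col1a1, Col1a2, Col3a1, Col4a1, Col4a2, Col5a1, Col5a2, Col6a1, Col6a2, Col6a3, Col7a1, Col12a1, Col14a1, Col15a1, Col17a1 and Col18a1. Among these 16, 10 intervals (62.5%) lay within 1.5-fold, a smaller share than that of all transcript clusters.

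**Figure D2:**
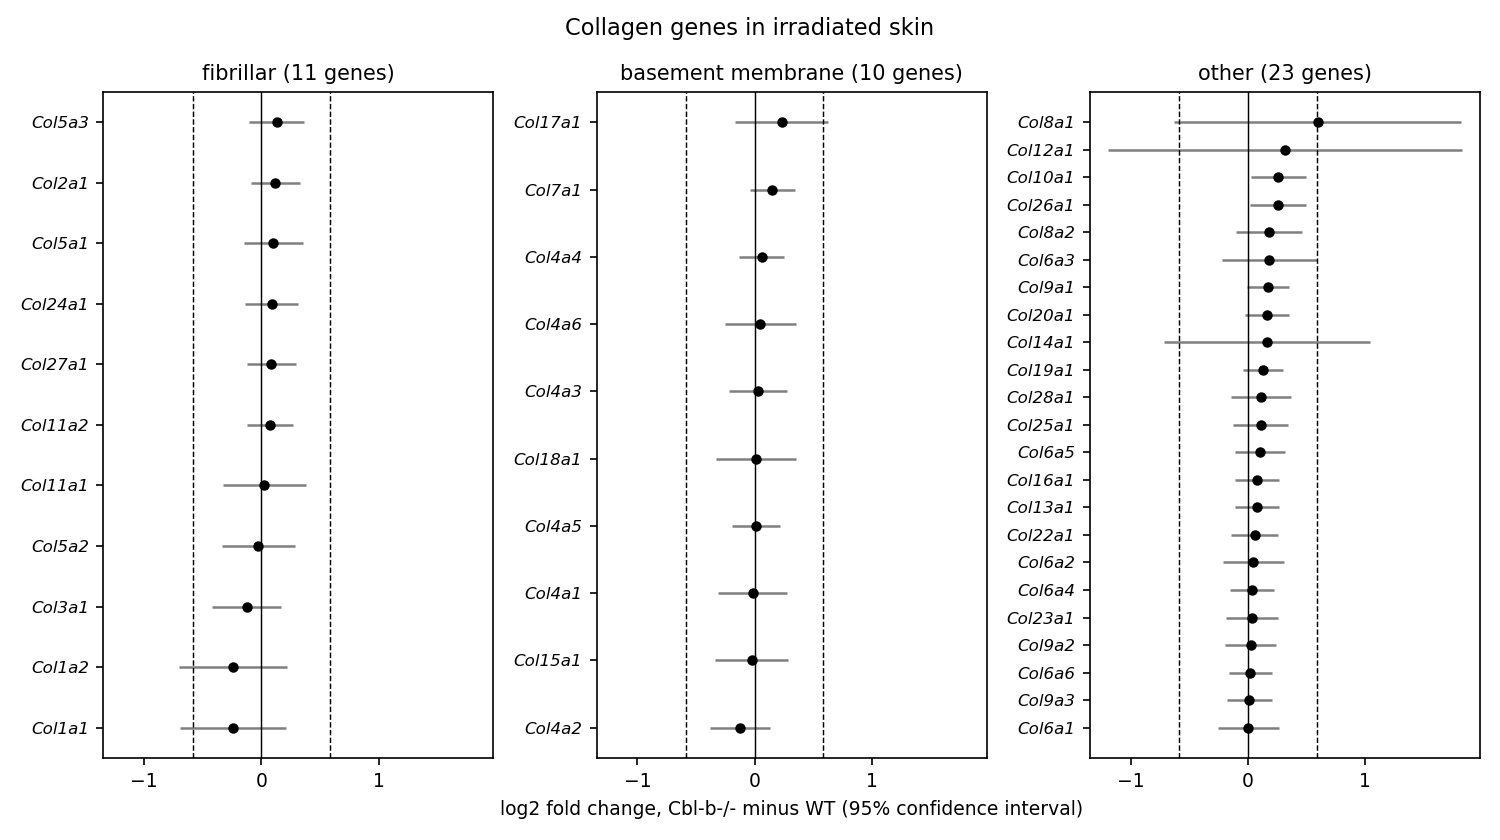
Log2 fold change (Cbl-b-/- minus WT) of each of the 44 collagen genes by class, with the 95% confidence interval from limma (bars) and 1.5-fold in either direction (dashed lines). Most intervals stay between the dashed lines, and those of Col8a1, Col12a1 and Col14a1 are the widest.

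Among the fibrillar collagens, the type I genes had the lowest fold changes. Col1a1, the alpha 1 chain of type I collagen, the main fibril protein of the dermis, was at 11.31, 10.93 and 11.55 in Cbl-b-/- and at 11.32, 11.76 and 11.44 in WT skin. Col1a2, the alpha 2 chain of the same triple helix, was at 10.59, 10.16 and 10.81 in Cbl-b-/- and at 10.62, 11.02 and 10.64 in WT skin. In both genes Cbl-b-/- replicate 2 was the lowest array and WT replicate 2 the highest, and the genotypes overlapped. The log2 fold change of Col1a1 was -0.24 (SE 0.19, 95% interval -0.69 to 0.21, adjusted p = 0.815 from limma), and that of Col1a2 was -0.24 (SE 0.19, 95% interval -0.70 to 0.22, adjusted p = 0.819 from limma). Without Cbl-b-/- replicate 2 these became -0.07 and -0.06.

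Col3a1, the sole chain of type III collagen, which runs with type I in skin fibrils, was at 9.33, 9.40 and 9.52 in Cbl-b-/- and at 9.47, 9.77 and 9.39 in WT skin. The fold change on the log2 scale was -0.12 (SE 0.12, 95% interval -0.42 to 0.17), with overlap of the genotypes. Type V collagen sits inside the type I fibril and governs its diameter. Col5a1 was at 7.03, 7.04 and 7.11 against 6.83, 6.89 and 7.15, a log2 fold change of 0.10 (SE 0.10). Col5a2 was at 6.89, 7.12 and 7.29 against 7.04, 7.28 and 7.05, a log2 fold change of -0.03 (SE 0.13). For both type V genes the genotypes overlapped. The other 6 fibrillar genes (Col2a1, Col5a3, Col11a1, Col11a2, Col24a1 and Col27a1) had log2 fold changes of 0.03 to 0.13, and all of their intervals lay within 1.5-fold. Col2a1 and the type XI genes are best known from cartilage, and of 7 cartilage markers 2 lay above background. Over the 11 fibrillar genes the median log2 fold change was 0.07 (range -0.24 to 0.13), beside 0.03 for all transcript clusters with 1 symbol. None of the 11 met a p under 0.05 in limma or in the test of the methods.

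**Figure D3:**
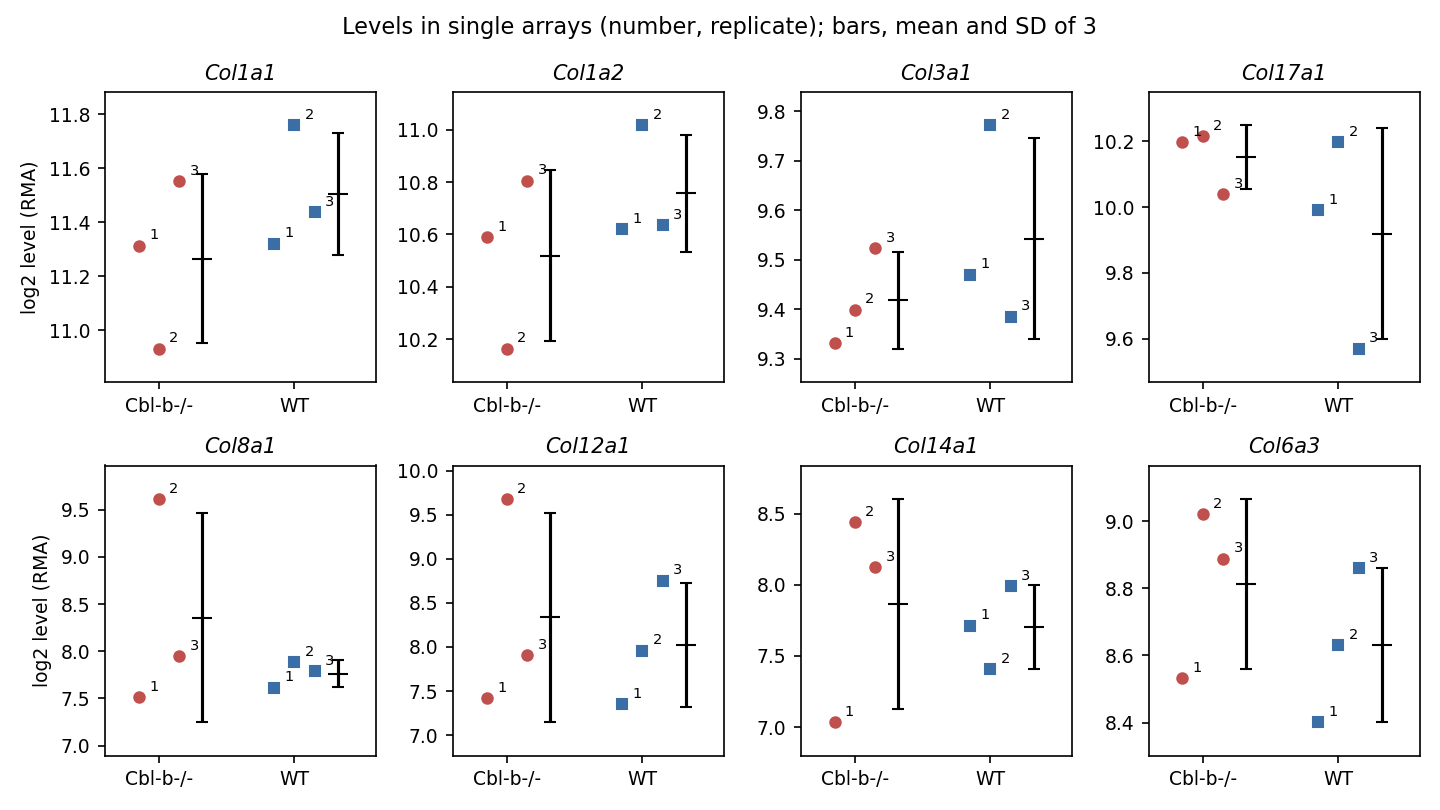
Log2 level of 8 collagen genes in each array (numbers, replicate), with the mean and SD of 3 arrays per genotype (bars); each panel has its own axis. The genotypes overlap in all 8 panels, and in Col8a1 and Col12a1 Cbl-b-/- replicate 2 stands above the other 5 arrays.

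The basement membrane collagens had log2 fold changes of -0.13 to 0.23, and Col7a1 was the one gene of this class whose genotypes did not overlap. Of all 44 collagens, 6 had their 3 Cbl-b-/- arrays above their 3 WT arrays (beside 8.66% of all transcript clusters) and 0 had them below (beside 4.89%). Of the 21789 transcript clusters with 1 symbol, 2071 had them above and 896 below. Col7a1, the anchoring fibril collagen, was at 7.06, 7.01 and 6.92 in Cbl-b-/- and at 6.78, 6.85 and 6.91 in WT skin. The lowest Cbl-b-/- array and the highest WT array were thus nearly level. The difference of the means was 0.15 (SE 0.08, 95% interval -0.04 to 0.34, adjusted p = 0.765 from limma). Col17a1, the hemidesmosome collagen of basal keratinocytes, was at 10.20, 10.22 and 10.04 in Cbl-b-/- and at 9.99, 10.20 and 9.57 in WT skin. The fold change on the log2 scale was 0.23 (SE 0.17, 95% interval -0.17 to 0.63, adjusted p = 0.805 from limma). WT replicate 3 was its lowest array, and without that array the log2 fold change was 0.06. WT replicate 3 was also lowest in the mean of the 8 basal keratinocyte markers (9.48, against at least 9.81 in the other arrays), and the part of these cells in the Col17a1 value was not tested.

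Col4a1 and Col4a2 encode the chains of the common type IV collagen. Col4a1 was at 7.68, 7.51 and 7.26 in Cbl-b-/- and at 7.48, 7.59 and 7.44 in WT skin, which gave a log2 fold change of -0.02 (SE 0.12). Col4a2 was at 7.34, 7.25 and 7.08 against 7.20, 7.44 and 7.40, a log2 fold change of -0.13 (SE 0.11). In both genes Cbl-b-/- replicate 3 was the lowest array, and the genotypes overlapped. Types XV and XVIII are collagens of the basement membrane zone that carry heparan or chondroitin sulfate chains, and endostatin is a fragment of type XVIII. Col15a1 was at 7.19, 7.05 and 7.39 against 7.08, 7.21 and 7.42, a log2 fold change of -0.03 (SE 0.13). Col18a1 was at 7.23, 7.62 and 7.10 against 7.31, 7.27 and 7.34, a log2 fold change of 0.01 (SE 0.14). Its 3 WT arrays lay inside the range of the Cbl-b-/- arrays. The other type IV genes, Col4a3 to Col4a6, had log2 fold changes of 0.01 to 0.06. Over the 10 basement membrane genes the median was 0.02 (-0.013 after cyclic loess normalization), and 9 of 10 intervals lay within 1.5-fold.

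Of the 23 other collagens, the largest fold change was that of Col8a1, and it came from 1 mouse. Col8a1, the alpha 1 chain of type VIII collagen, a short chain collagen of vessel walls and of the cornea, was at 7.51, 9.61 and 7.95 in Cbl-b-/- and at 7.61, 7.89 and 7.79 in WT skin. Cbl-b-/- replicate 2 was high, and the other 5 arrays lay between 7.51 and 7.95. The log2 fold change was 0.59 (SE 0.51, 95% interval -0.63 to 1.82, adjusted p = 0.83 from limma), and without Cbl-b-/- replicate 2 it was -0.03. Its partner chain Col8a2 was at 5.82, 5.54 and 5.47 against 5.33, 5.42 and 5.54, and its 5.54 in replicate 2 lay inside the range of the other arrays.

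Col12a1 and Col14a1 encode fibril-associated collagens that coat the surface of type I fibrils. Col12a1 was at 7.42, 9.68 and 7.91 in Cbl-b-/- and at 7.35, 7.96 and 8.75 in WT skin. Its range over the 6 arrays was the largest of the 44 collagens, with Cbl-b-/- replicate 2 and then WT replicate 3 on top. The log2 fold change was 0.31 (SE 0.63, 95% interval -1.20 to 1.82), and it was -0.36 without Cbl-b-/- replicate 2. Col14a1 was at 7.04, 8.44 and 8.12 against 7.71, 7.41 and 7.99, so that the Cbl-b-/- arrays held both its lowest and its highest value. Its log2 fold change was 0.16 (SE 0.36, 95% interval -0.71 to 1.04) and -0.12 without Cbl-b-/- replicate 2. Without Cbl-b-/- replicate 1 it was 0.58 (unadjusted p = 0.0322). The array in which Col8a1 and Col12a1 stood highest was the one with the lowest adipocyte and muscle markers, and the part of tissue make-up in these values was not tested.

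Type VI collagen forms beaded filaments around cells and near basement membranes. Col6a1 was at 8.25, 8.49 and 8.39 in Cbl-b-/- and at 8.22, 8.41 and 8.50 in WT skin, which gave a log2 fold change of 0.00 (SE 0.11, 95% interval -0.26 to 0.26). Col6a2 was at 7.76, 7.98 and 7.82 against 7.64, 7.89 and 7.90, a log2 fold change of 0.05 (SE 0.11). The means of the genotypes were all but level in these 2 genes. Col6a3, the third chain of the common type VI heterotrimer, was at 8.53, 9.02 and 8.89 against 8.40, 8.63 and 8.86, a log2 fold change of 0.18 (SE 0.17, 95% interval -0.22 to 0.59). Col6a4, Col6a5 and Col6a6 had log2 fold changes of 0.04, 0.10 and 0.02. The second transcript clusters of Col6a5 and Col6a6 gave log2 fold changes of 0.09 and -0.23, so that the 2 for Col6a6 differed in sign, and neither had a p under 0.05. The second transcript cluster of Col6a6 averaged 5.12 in Cbl-b-/- skin, under the background level.

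Col10a1 and Col26a1 were the 2 collagens with an unadjusted p under 0.05 in limma. Col10a1, a short chain collagen known from hypertrophic cartilage, was at 5.41, 5.54 and 5.45 in Cbl-b-/- and at 5.05, 5.30 and 5.26 in WT skin. All 3 WT values lay under 5.34, the level taken as background, and the Cbl-b-/- mean of 5.46 was close to it. The log2 fold change of 0.26 (SE 0.10, 95% interval 0.03 to 0.49, unadjusted p = 0.0341, adjusted p = 0.749 from limma) is therefore a difference between values near background. Col26a1, which encodes type XXVI collagen, was at 6.80, 6.94 and 6.75 against 6.42, 6.66 and 6.63. The difference of the means was 0.26 (SE 0.10, 95% interval 0.02 to 0.50, unadjusted p = 0.0392, adjusted p = 0.749 from limma). In both genes the genotypes did not overlap and WT replicate 1 was the lowest array, and without that array the log2 fold changes were 0.18 each. The genes with an unadjusted p under 0.05 in the test of the methods were Col19a1, Col9a1, Col20a1, Col10a1 and Col7a1, and none had an adjusted p under 0.05 by limma or by that test. Their log2 fold changes lay between 0.13 and 0.26. Col19a1, at 4.76 to 4.95, was the 1 collagen of 44 not above background in either genotype, so its values say little about its RNA. Of the transcript clusters with 1 symbol, 16053 of 21789 passed that level, so a value above it does not by itself show expression. Col9a1, Col19a1 and Col20a1 also had genotypes that did not overlap, which with Col7a1, Col10a1 and Col26a1 makes up the 6.

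Small differences of the collagens leaned to the Cbl-b-/- side, though not among the 16 core skin collagens. The number of genes on that side changed with the array left out. The log2 fold change was above 0 in 37 of 44 collagens (84.1%), beside 58.4% of transcript clusters with 1 symbol, and after cyclic loess normalization between the arrays it was above 0 in 30 of 44 (68.2% beside 50.7%). By class it was above 0 in 7 of 11 fibrillar, 7 of 10 basement membrane and 23 of 23 other collagens, and after cyclic loess in 6, 4 and 20. Among the 16 core skin collagens it was above 0 in 9 (56.2%), with a median log2 fold change of 0.0067. WT replicate 1 was the lowest of the 6 arrays in 25 of 44 collagens (56.8%) and the highest in 0, while it was the lowest in 19.9% of transcript clusters with 1 symbol. All 25 of those genes were among the 37. WT replicate 1 was singled out for these low values, and a low WT value raises the fold change. This overlap and the counts without that array therefore follow in part from the choice of array. Without WT replicate 1 the log2 fold change was above 0 in 27 of 44 (61.4%), beside 58.5% of transcript clusters with 1 symbol, and by class in 6, 5 and 16. It was above 0 in 31 of 44 without Cbl-b-/- replicate 2. With each array left out in turn, this number ranged from 27 to 38. No collagen had an unadjusted p under 0.05 in limma without WT replicate 1. The same held without Cbl-b-/- replicate 2 and after cyclic loess. The mean fibroblast marker level of WT replicate 1 was 10.19, inside the range of the other arrays. Collagen genes of a mouse share its skin sample and array, so these counts are not over independent genes.

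**Figure D4:**
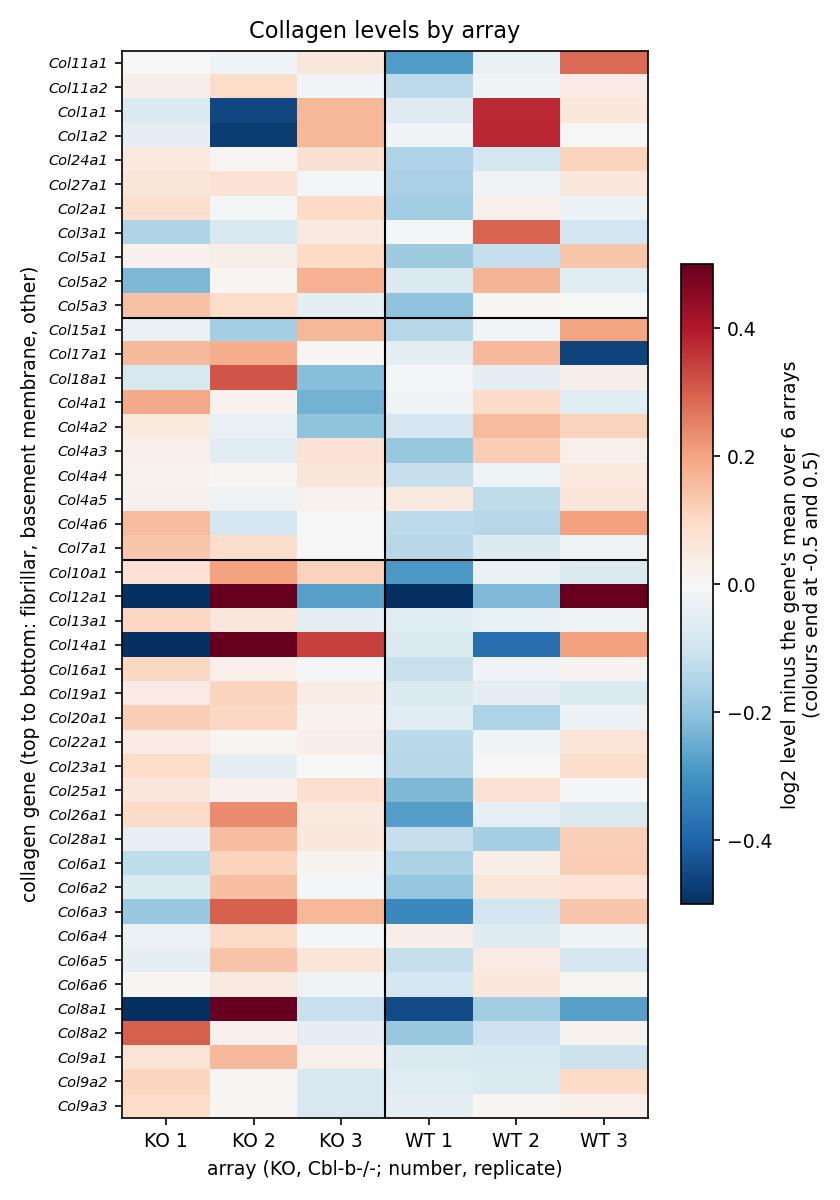
Log2 level of each collagen gene in each array minus the mean of that gene over the 6 arrays (red, above; blue, below; colours end at -0.5 and 0.5). The column of WT replicate 1 is blue for most genes, and the deepest colours belong to Col1a1, Col1a2, Col8a1, Col12a1, Col14a1 and Col17a1.

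Most collagens varied little between mice, but the core skin collagens varied more. The range over the 6 arrays was under 0.5 in 34 of 44 genes, with a median of 0.31, beside a median of 0.36 for transcript clusters with 1 symbol. For the 16 core skin collagens the median range was 0.43. A range over 1 was found in 3 of the 44, Col12a1 (2.33), Col8a1 (2.10) and Col14a1 (1.40), and in 6.3% of transcript clusters with 1 symbol. Cbl-b-/- replicate 2 was the highest array in 16 of 44 collagens, yet it was the lowest for Col1a1 and Col1a2. The type I chains thus stood opposite to Col8a1 and Col12a1 in that mouse.

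Chains of 1 molecule did not all move alike from mouse to mouse. Col1a1 and Col1a2 ranged over 0.83 and 0.85, and the difference between their log2 levels varied by 0.10, with the 6 arrays in the same order. Col6a1 and Col6a2, neighbours on chromosome 10, ranged over 0.28 and 0.34, and their difference varied by 0.11. In these 2 pairs the chains varied together between the mice, within each genotype as well. Col4a1 and Col4a2, which share a start region, ranged over 0.43 and 0.36, and their difference varied by 0.31. For Col5a1 and Col5a2 the difference varied by 0.53, more than either gene (0.32 and 0.40). For Col8a1 and Col8a2 it varied by 2.38, with 2.10 for Col8a1 and 0.49 for Col8a2. Col3a1 and Col5a2, neighbours on the genome but chains of different types, ranged over 0.44 and 0.40 with a difference that varied by 0.25. These values are descriptions over 6 arrays, and the probes of different genes differ in response.

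**Figure D5:**
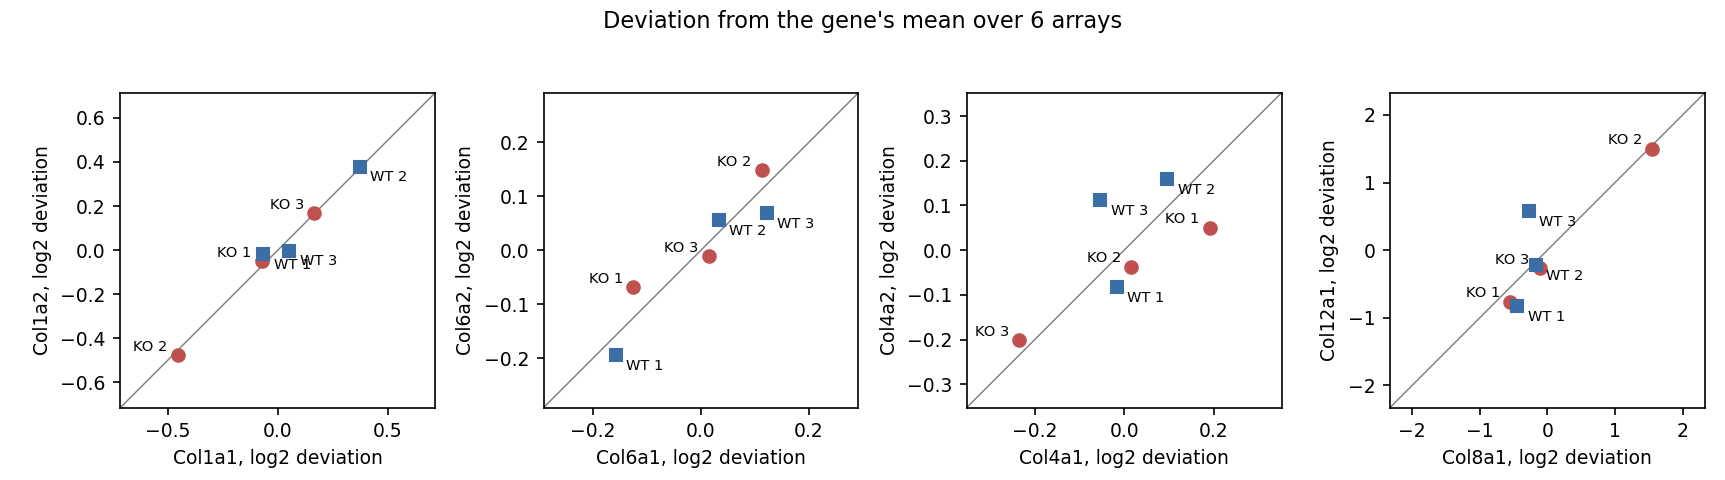
Deviation of 2 collagen genes from their own mean over the 6 arrays (log2), plotted against each other for 4 pairs; red circles are Cbl-b-/- (KO) and blue squares WT, the number is the replicate, and the line marks equal deviations. Points of Col1a1 with Col1a2 follow the line, those of Col4a1 with Col4a2 scatter around it, and Cbl-b-/- replicate 2 lies far from the other arrays for Col8a1 with Col12a1.

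Few of the genes that make, trim, bind, cleave or induce collagen passed a test. Of 60 genes on 5 lists, 2 were higher (beside 3.68% of all transcript clusters) and 1 was lower (beside 2.87%) at an unadjusted p under 0.05 in limma. These counts are near the background shares, and 0 met the thresholds of the study or an adjusted p under 0.05. By the test of the methods 4 had an unadjusted p under 0.05 (beside 4.62% higher and 2.36% lower), and 41 of the 60 intervals lay within 1.5-fold (beside 77.9%). The higher genes were Loxl1 and Mrc2, and the lower gene was Loxl4. Of 20 genes of collagen modification and folding, 0 had a p under 0.05 in limma, with a median log2 fold change of 0.01. Serpinh1, the collagen chaperone HSP47, was at 7.92, 8.04 and 7.93 in Cbl-b-/- and at 8.05, 7.90 and 7.96 in WT skin, which gave a log2 fold change of -0.01 (SE 0.08, 95% interval -0.20 to 0.19). P4ha1, a prolyl 4-hydroxylase subunit whose product stabilises the triple helix, was at 7.95, 8.21 and 8.01 against 8.38, 8.21 and 7.78, a log2 fold change of -0.07 (SE 0.17). The arrays of both genotypes were mixed in both genes.

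The 12 genes of processing and cross-linking (median log2 fold change 0.11) held 1 higher and 1 lower gene at an unadjusted p under 0.05 (backgrounds 3.68% and 2.87%), both of them lysyl oxidase-like enzymes, which cross-link collagen and elastin. Loxl4 was at 8.08, 8.43 and 8.08 in Cbl-b-/- and at 8.47, 8.85 and 8.92 in WT skin, with no overlap. This made a log2 fold change of -0.55 (SE 0.16, 95% interval -0.93 to -0.17, unadjusted p = 0.0113, adjusted p = 0.707 from limma). Loxl1 was at 9.03, 9.14 and 9.40 against 9.05, 8.65 and 8.50, with a slight overlap between Cbl-b-/- replicate 1 and WT replicate 1. Its log2 fold change was 0.45 (SE 0.17, 95% interval 0.05 to 0.86, unadjusted p = 0.0334, adjusted p = 0.749 from limma). Lox, the founding enzyme of the family, was at 9.17, 9.25 and 9.71 against 9.25, 9.08 and 8.47, a log2 fold change of 0.44 (SE 0.24, 95% interval -0.13 to 1.01). WT replicate 3 held the lowest value of Lox and of Loxl1.

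Of 9 collagen receptor genes (median log2 fold change 0.07), 1 was higher and 0 were lower at an unadjusted p under 0.05 (backgrounds 3.68% and 2.87%). It was Mrc2, the endocytic receptor that takes up collagen fragments, at 7.35, 7.56 and 7.51 in Cbl-b-/- and at 7.21, 7.33 and 7.15 in WT skin, with no overlap. Its log2 fold change was 0.24 (SE 0.09, 95% interval 0.02 to 0.47, unadjusted p = 0.0385, adjusted p = 0.749 from limma). Of 9 collagen-cleaving protease genes, 0 had a p under 0.05 in limma, with a median of 0.0022. Their log2 fold changes ran from -1.09 (Mmp8, SE 0.71, 95% interval -2.80 to 0.61) to 0.38. Only 4 of the 9 intervals lay within 1.5-fold. Mmp13, an interstitial collagenase of the mouse, was at 7.32, 7.55 and 4.91 against 7.22, 6.56 and 6.29, a log2 fold change of -0.10 (SE 0.70). Cbl-b-/- replicate 3 was its lowest array and lay under the background level. Mmp14, a collagenase held in the cell membrane, was at 10.17, 10.22 and 10.31 against 9.93, 10.18 and 10.22, a log2 fold change of 0.12 (SE 0.10, 95% interval -0.13 to 0.37). Of 10 genes of TGF-beta signalling, which induces collagen genes in fibroblasts, 0 had a p under 0.05 in limma, with a median log2 fold change of 0.09. Their log2 fold changes ran from -0.49 (Ccn2) to 0.20.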

How the data were processed

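Dorsal skin RNA of 6 mice was hybridized to Affymetrix arrays (Mouse Gene 1.0 ST), 1 array per mouse. The authors deposited log2 values, normalized by RMA in Partek Genomics Suite (version 6.5 in the submitters' processing notes). The values were used as deposited. Genotypes were compared with limma 3.58.1 in R 4.3.3 on all 35556 transcript clusters, with 3 arrays per genotype, with Benjamini-Hochberg adjustment over the whole table. The fit was run on simulated normal values, drawn independently for each transcript cluster with the spread that limma had estimated. That run could not show how the fit handles a mouse or an array that stands apart. Precision is limited by the number of arrays. The labels give no batch.

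The collagen genes, the pathway lists and the marker lists were chosen with earlier results of these data known. Genes named with every value were 16 core skin collagens, collagens with an unadjusted p under 0.05, the 3 with the largest fold change in each direction, pathway genes with an unadjusted p under 0.05 and Serpinh1, P4ha1, Lox, Mmp13 and Mmp14. Other collagens named singly, and Mmp8, Ccn2 and Myh2, were chosen after their values were seen. The background level, 5.34, is the 95th percentile of 1210 transcript clusters of olfactory and vomeronasal receptors. The array annotation names 1 gene for 21789 transcript clusters, several for 1621 and none for 12146. Promoters were taken from RefSeq (GRCm38.p6).

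Alternatives were the test of the methods, an intensity trend, cyclic loess, equal array medians, removal of low transcript clusters, the mean of all transcript clusters of a gene, a replicate block and leaving out each array. Whether same-numbered arrays vary together was checked with the correlation of their deviations from the group means.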

Additional observations from a re-analysis of the deposited data

How the results depend on the processing

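All of the alternatives left 0 collagens past the thresholds of the study in either direction, and Cblb lower in Cbl-b-/-. The number of collagens higher at an unadjusted p under 0.05, 2 in limma, was 5 in the test of the methods, 0 after cyclic loess and 1 with low transcript clusters removed, and it ranged from 0 to 2 with any 1 array left out. Leaving out an array gave 6 to 17 collagens without overlap on the higher side (17 without WT replicate 3) and 0 to 2 on the lower side. With fewer arrays a lack of overlap arises more easily by chance. The share over all transcript clusters was not counted in these settings, so these counts are not read as a result about collagens. The pathway genes higher at that p numbered 1 with equal array medians and 0 to 4 without 1 array, and those lower 1 to 3. With 1 array left out, the median log2 fold changes of the classes ranged from 0.02 to 0.13 (fibrillar), 0.0025 to 0.06 (basement membrane) and 0.06 to 0.12 (other). After cyclic loess the basement membrane median was -0.013, of opposite sign. Col6a1, with a fold change near 0, turned to -0.0022 after cyclic loess and -0.0061 with equal array medians. Leaving out 1 array turned the sign of 9 named collagens, with log2 fold changes of -0.36 to 0.77 (Col12a1), -0.12 to 0.58 (Col14a1), -0.034 to 1.02 (Col8a1), -0.12 to 0.079 (Col5a2), -0.077 to 0.065 (Col6a1), -0.039 to 0.092 (Col6a2), -0.12 to 0.095 (Col4a1), -0.12 to 0.065 (Col15a1) and -0.14 to 0.12 (Col18a1). The counts of collagens with a fold change above 0 (27 to 38) and with an interval within 1.5-fold (35 to 41) were chosen after seeing the data. Same-numbered arrays of the 2 genotypes correlated at 0.233, 0.0925 and 0.247 in their deviations. Each Cbl-b-/- array correlated best with the WT array of its own number, but Cbl-b-/- replicate 1 correlated at 0.232 with WT replicate 2. Deviations within a genotype are tied to each other and the design gives no pairing, so no pairing was taken from these values. With the replicate block, 2 collagens were again higher at an unadjusted p under 0.05 and 37 had a fold change above 0, and the block changed no call on the collagens. The cause of these shifts was not tested. With 3 arrays per genotype, the intervals of the genes that vary most between mice do not exclude a 1.5-fold difference.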
